A study of Capra hircus with 6 samples.

Results

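The genes described here were listed as genes of the oocyte and its germ-line precursors, a label that the values of FBXW12 below go against. They are the growth factors GDF9 and BMP15, the egg-coat genes ZP2, ZP3 and ZP4, the transcription factor FIGLA, the histone chaperone NPM2, the germ-cell RNA-binding proteins DAZL and DDX4, and the F-box gene FBXW12. They were chosen by name, and all 10 of the 10 named genes matched a row by NCBI GeneID among the 17504 genes in the deposited tables. Whole-ovary RNA had been sequenced from 3 Jintang black goats, called prolific in the labels, and from 3 Tibetan goats, called non-prolific, each sampled in the follicular phase. One library was made per goat, and the labels give no age, weight or treatment of the goats. The study asked how the ovarian transcriptomes of the breeds differ.

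An oocyte grows inside a follicle of somatic granulosa cells. As it grows it secretes GDF9 and BMP15, members of the TGF-beta family that act on the surrounding granulosa and cumulus cells, and in sheep variants of either gene alter ovulation rate. It also builds the zona pellucida, the glycoprotein coat that sperm must bind and cross. FIGLA, a basic helix-loop-helix factor, switches on the zona genes in mouse oocytes. In a whole ovary oocytes are a small share of the cells, so their transcripts are diluted by those of granulosa, theca, luteal and stromal cells.

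Expression was given as FPKM, in which fragment numbers are divided by transcript length and by library size, which allows genes to be compared within a library. The sum of FPKM ran from 602511 to 669309 in Jintang libraries and from 602255 to 682801 in Tibetan libraries. Absolute depth is unknown. The spacing of the lowest values put the deepest library at 1.12 times the shallowest. That the tissue is ovary comes from the labels. The gonadal transcription factors GATA4 and NR5A1 were above 0 in all 6 libraries, which by itself does not identify the tissue. GATA4 stood between 31.7 and 69.8 FPKM in Jintang ovaries and between 50.2 and 123 FPKM in Tibetan ovaries. For NR5A1 the ranges were 22.9 to 32.7 FPKM in Jintang ovaries and 19.3 to 62.6 FPKM in Tibetan ovaries. Values below are means ± SD with n = 3 goats per breed unless single ovaries are named.

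Jintang 3 and Tibetan 2, 1 ovary of each breed, held most of the oocyte message. Leaving out FBXW12, which followed another order, the summed level of the other 9 genes was 7.16, 4.91 and 27.1 FPKM in Jintang 1, 2 and 3, against 0.91, 24.1 and 4.72 FPKM in Tibetan 1, 2 and 3. The breed means were 13.1 ± 12.2 FPKM in Jintang and 9.92 ± 12.4 FPKM in Tibetan ovaries, so the spread within each breed was about as large as the mean itself. In bulk tissue, fewer oocytes and less message per oocyte cannot be told apart. FBXW12 was set aside in this sum after its values were seen. The labels give no batch, and the table of Tibetan 2 carries a differently formed name from the other 5, with no meaning stated. By relative depth, with Tibetan 1 set to 1, Jintang 3 was the shallowest of the 6 libraries (0.923) and Tibetan 2 the deepest (1.03).

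That order was shared by most of the genes. In 7 of the 10 (BMP15, ZP2, ZP3, ZP4, NPM2, DAZL and DDX4) Jintang 3 and Tibetan 2 stood above the other 4 ovaries, against 9.84% of the 17411 genes above 0 in at least 1 library, and against 10.3% of the 9833 such genes with a mean under 10 FPKM. The ordering was noticed in these values, so the count is a description and carries no test. In BMP15, DAZL and DDX4 it rests on low values and narrow margins. BMP15 was at 0.26 FPKM in Tibetan 2 against 0.14 FPKM in Jintang 1, and DDX4 at 0.27 FPKM in Jintang 3 against 0.23 FPKM in Jintang 2. DAZL was at 0.08 FPKM in Tibetan 2, above ovaries listed at 0. Tibetan 1 was at the other end: 8 of the 10 genes had their lowest value there, ties counted, and 5 were listed at 0. BMP15, DAZL and FIGLA tied there at 0 with other ovaries. Tibetan 1 also had the most genes listed at 0 of the 6 libraries, 1969, and the share of all genes lowest in it was not counted.

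**Figure D1:**
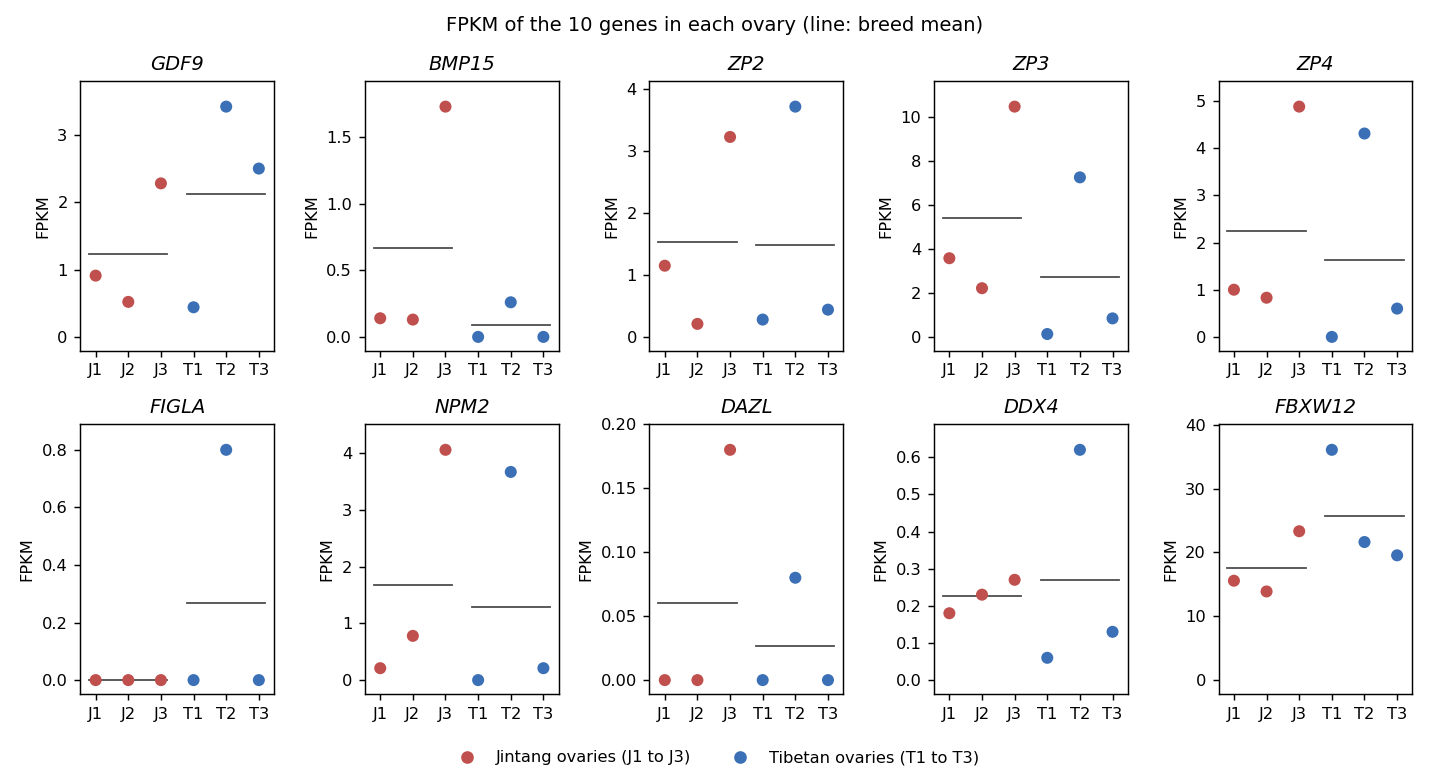
FPKM of each of the 10 genes in the 3 Jintang ovaries (J1 to J3, red) and the 3 Tibetan ovaries (T1 to T3, blue); points are single ovaries, lines are breed means, and each panel has its own linear axis. J3 and T2 are the high points in most panels (10.45 and 7.24 FPKM for ZP3), while FBXW12 is highest in T1 at 36.1 FPKM.

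GDF9, the growth factor that drives follicles past their early stages, stood at 0.91, 0.52 and 2.28 FPKM in Jintang 1, 2 and 3, against 0.44, 3.42 and 2.5 FPKM in Tibetan 1, 2 and 3. Its 3 highest values were those of Tibetan 2, Tibetan 3 and Jintang 3, so it departed from the common order through Tibetan 3 alone. The breed ranges overlapped, and the difference of -0.41 on the log2(FPKM + 1) scale (95% interval -1.57 to 0.75, limma adjusted p = 0.851) did not pass the test. Leaving out 1 library moved it between -0.89 (without Tibetan 1) and -0.083 (without Tibetan 2). Its neighbour LOC102171149 in the RefSeq gene table is a far more abundant gene, at 59.6 to 147 FPKM in Jintang and 76.0 to 103 FPKM in Tibetan ovaries, with spans that do not overlap that of GDF9.

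BMP15, the partner of GDF9, was the scarcer of the growth factors in every ovary. It stood at 0.14, 0.13 and 1.73 FPKM in Jintang 1, 2 and 3, against 0.26 FPKM in Tibetan 2 and listed values of 0 in Tibetan 1 and 3. The single ovary Jintang 3 held the highest value by far, and it set the Jintang mean of 0.667 ± 0.921 FPKM above the Tibetan mean of 0.0867 ± 0.15 FPKM. After correction for relative depth, the values of Jintang 1, Jintang 3 and Tibetan 2 were 1.02, 12.2 and 2.04 times that of Jintang 2, as a small whole number of fragments would give. The difference was 0.49 on the log2(FPKM + 1) scale (95% interval -0.32 to 1.30, limma adjusted p = 0.794), and 0.072 without Jintang 3.

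The balance of the growth factors differed between the ovaries with the most oocyte message. GDF9 was 1.32 times BMP15 in Jintang 3 and 13.2 times BMP15 in Tibetan 2. The other ovaries with BMP15 above 0 gave ratios of 6.50 in Jintang 1 and 4.0 in Jintang 2. GDF9 therefore exceeded BMP15 in all 6 libraries, with the closest levels in Jintang 3. These ratios rest on single libraries and on few fragments of BMP15, and the difference between them was not tested.

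ZP3, which encodes a structural zona glycoprotein, was the most abundant of the egg-coat genes. It was at 3.57, 2.21 and 10.4 FPKM in Jintang 1, 2 and 3, against 0.13, 7.24 and 0.84 FPKM in Tibetan 1, 2 and 3. Each Jintang ovary exceeded both Tibetan 1 and Tibetan 3, but Tibetan 2 lay above Jintang 1 and 2, so the ranges overlapped. The breed difference of 1.10 on the log2(FPKM + 1) scale was the furthest from 0 among the 10 genes, with a 95% interval from -0.82 to 3.01 (limma adjusted p = 0.799). That rank depends on the scale: on log2(FPKM + 0.01), BMP15 (3.47) and ZP4 (2.43) lay further from 0 than ZP3 (2.20). Back on the log2(FPKM + 1) scale, the ZP3 difference changed when single libraries were left out. Without Tibetan 2 it was 1.94, at an unadjusted p of 0.0210 and an adjusted p of 0.803, and without Tibetan 1 it was 0.50.

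ZP4, another zona glycoprotein gene, stood at 1.00, 0.83 and 4.88 FPKM in Jintang 1, 2 and 3, against 4.31 and 0.60 FPKM in Tibetan 2 and 3 and a listed value of 0 in Tibetan 1. ZP2, whose protein is the zona component that sperm bind in mouse, stood at 1.15, 0.21 and 3.23 FPKM in Jintang ovaries, against 0.28, 3.72 and 0.44 FPKM in Tibetan ovaries. Both had the same high pair of ovaries and overlapped between breeds, with differences of 0.45 (SE 0.70, limma adjusted p = 0.885) and 0.11 (SE 0.63, limma adjusted p = 0.970). In the RefSeq gene table ZP2 overlaps the span of ANKS4B, and no source used here states that counting used strand, so reads of the pair may not be separated. ANKS4B itself was flat, at 0.33 to 0.58 FPKM in Jintang and 0.40 to 0.52 FPKM in Tibetan ovaries.

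The make-up of the coat message was described by shares, with no test. ZP3 made up 56.3% of the summed FPKM of the 3 zona genes in Jintang 3 and 47.4% in Tibetan 2. ZP4 made up 26.3% in Jintang 3 and 28.2% in Tibetan 2, and ZP2 made up 17.4% in Jintang 3 and 24.4% in Tibetan 2. The shares of ZP2, ZP3 and ZP4 were 20.1%, 62.4% and 17.5% in Jintang 1, 6.46%, 68.0% and 25.5% in Jintang 2, and 23.4%, 44.7% and 31.9% in Tibetan 3. For ZP2 and ZP3 the share in Tibetan 2 lay closer to Tibetan 3 than to Jintang 3, and for ZP4 closer to Jintang 3. The zona sum of Tibetan 3 was only 1.88 FPKM. ZP3 was the leading zona gene in 5 of the 6 ovaries. The exception was Tibetan 1, where the sum of the 3 genes was 0.41 FPKM and ZP2 led with 68.3%. The zona sum stood at 8.14 times GDF9 in Jintang 3 and 4.47 times in Tibetan 2, but at 0.752 times in Tibetan 3, where GDF9 was high and the coat genes were low.

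FIGLA was seen in 1 ovary only, at 0.80 FPKM in Tibetan 2, and is listed at 0 in the 3 Jintang ovaries and in Tibetan 1 and 3. Jintang 3 thus had ZP3 at 10.4 FPKM and ZP4 at 4.88 FPKM with FIGLA listed at 0. No fold is given for a gene listed at 0 in every ovary of a breed. A listed 0 at this level may hold undetected message, since absolute depth is unknown.

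NPM2, nucleoplasmin 2, a histone chaperone stored in eggs that remodels sperm chromatin after fertilization, was among the genes with the common order. It stood at 0.21, 0.78 and 4.06 FPKM in Jintang 1, 2 and 3, against 3.67 and 0.21 FPKM in Tibetan 2 and 3 and a listed 0 in Tibetan 1. Corrected for relative depth, Jintang 3 stood at 18.8 times and Tibetan 2 at 19.0 times the value of Tibetan 3. The breeds averaged 1.68 ± 2.08 FPKM in Jintang and 1.29 ± 2.06 FPKM in Tibetan ovaries, a difference of 0.32 on the log2(FPKM + 1) scale (SE 0.72, limma adjusted p = 0.916).

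The general germ-cell genes were near the lower limit of the tables. DAZL, an RNA-binding protein needed for germ-cell development, stood at 0.18 FPKM in Jintang 3 and 0.08 FPKM in Tibetan 2, and is listed at 0 in the other 4 ovaries. DDX4, the germ-line RNA helicase known as VASA, was above 0 in all 6, at 0.18, 0.23 and 0.27 FPKM in Jintang 1, 2 and 3, against 0.06, 0.62 and 0.13 FPKM in Tibetan 1, 2 and 3. Its Jintang values lay close together (0.227 ± 0.0451 FPKM), inside the wider Tibetan range (0.270 ± 0.305 FPKM). The differences were 0.04 for DAZL and -0.02 for DDX4 on the log2(FPKM + 1) scale, with limma adjusted p-values of 0.922 and 0.98.

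FBXW12 did not behave like the other members. It encodes an F-box protein, the family that picks substrates for SCF ubiquitin ligases. It stood at 15.6, 13.9 and 23.3 FPKM in Jintang 1, 2 and 3, against 36.1, 21.6 and 19.5 FPKM in Tibetan 1, 2 and 3. Its highest value was in Tibetan 1, where 8 of the other 9 genes were at their lowest, ties counted. It was 39.6 times the sum of those 9 genes there, and 0.861 and 0.896 times that sum in Jintang 3 and Tibetan 2. Its mean over the 6 ovaries lay at the 75.0 percentile of all genes, against the 4.91 to 39.4 percentiles for the other 9. These values go against the label of an oocyte gene for this row, which in these libraries did not follow the egg-coat genes. Jintang ovaries averaged 17.6 ± 5.03 FPKM and Tibetan ovaries 25.7 ± 9.0 FPKM, with overlap, and the difference of -0.51 (95% interval -1.27 to 0.25) had the lowest p of the 10 genes, a limma adjusted p of 0.782. It was -0.25 without Tibetan 1.

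Ordered by mean FPKM over the 6 ovaries, the genes ran FBXW12 (21.7), ZP3 (4.07), ZP4 (1.94), GDF9 (1.68), ZP2 (1.5), NPM2 (1.49), BMP15 (0.377), DDX4 (0.248), FIGLA (0.133) and DAZL (0.0433). FBXW12 exceeded ZP3, and ZP3 exceeded ZP4, in 6 of 6 ovaries. In an exact paired permutation test over the 6 ovaries (2-sided, on log2(FPKM + 1)) both steps had p = 0.0312, the smallest this design allows, and an adjusted p of 0.141 over the 9 adjacent pairs. NPM2 exceeded BMP15 in 5 of 6 ovaries (exact permutation p = 0.0625, adjusted p = 0.188). BMP15 exceeded DDX4 in 1 of 6 ovaries, Jintang 3, and FIGLA exceeded DAZL in 1 of 6, Tibetan 2, so both ranks rest on a single ovary. The remaining neighbours, including the run of ZP4, GDF9, ZP2 and NPM2, did not differ beyond their spread, with adjusted p-values of 0.211 or more in the same exact test. The pairs and their direction were taken from the values tested, so these p-values describe the steps and cannot support the order.

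The breed comparison called 0 of the 10 genes. Limma (lmFit and eBayes with an intensity trend, Benjamini-Hochberg over 17411 genes) called 0% of all genes higher and 0% lower in the Jintang breed (adjusted p under 0.05). Before adjustment, 0 of the 10 genes had a p under 0.05, where the share over all genes was 5.73% (2.46% higher and 3.27% lower). The 998 genes behind that share became 521 without Tibetan 1, 527 without Jintang 1 and 2138 without Jintang 3. The breed ranges overlapped in all 10, against 9.28% of all genes without overlap. Differences were above 0 in 6 of the 10 genes, against 43% of all genes, and their median was 0.08, or 0.11 without FIGLA, against -0.06 over all genes tested. Adjusted p-values ran from 0.782 to 0.98, and exact permutation tests of single genes gave 2-sided p-values from 0.3 to 1, where 3 goats against 3 cannot go below 0.1. The intervals of GDF9, BMP15, ZP2, ZP3, ZP4, NPM2 and FBXW12 each reach past a difference of 1 in size, so these data leave room for large differences between breeds in either direction for ZP2, ZP4 and NPM2.

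**Figure D2:**
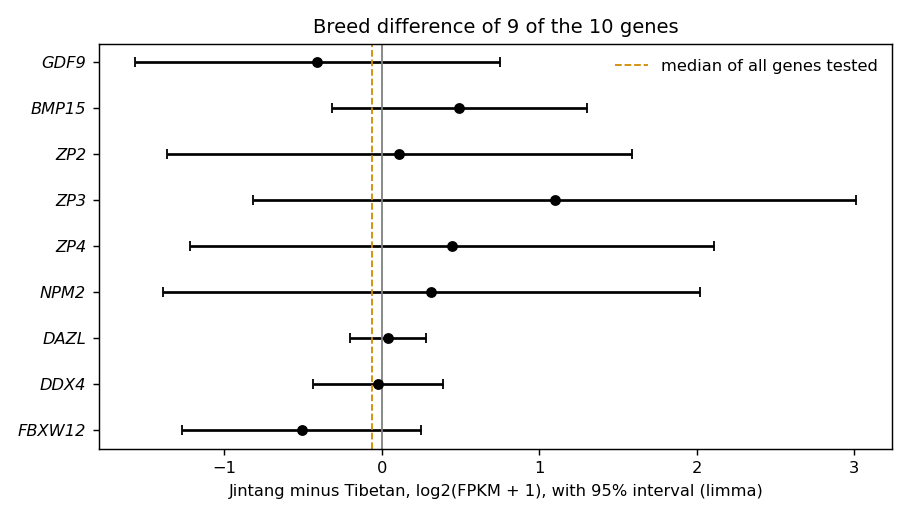
Breed difference (Jintang minus Tibetan, log2(FPKM + 1) scale) of 9 of the genes; points are limma estimates from 3 ovaries per breed, bars are 95% intervals, and the dashed line is the median of all genes tested at -0.06. Every interval spans 0; FIGLA is left out because it is listed at 0 in the 3 Jintang ovaries.

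Other genes known chiefly from oocytes were described from a wider list, of which 31 of 48 entries matched a row. Of the 31, 18 (58.1%) had Jintang 3 and Tibetan 2 above the other 4 ovaries, against 9.84% of all genes, and 23 had their lowest value in Tibetan 1, ties counted. None passed the breed test (0 by limma after adjustment, and 0 with an unadjusted p under 0.05, against 5.73% of all genes), none was without overlap (9.28% of all genes), and the median difference was 0.06 on the log2(FPKM + 1) scale, with 23 of 31 above 0 (43% of all genes). The 8 with the highest mean level fell into both kinds. ASTL, the egg protease that cleaves ZP2 in mouse, stood at 1.31, 1.10 and 3.94 FPKM in Jintang 1, 2 and 3, against 0.14, 3.69 and 0.15 FPKM in Tibetan 1, 2 and 3. PADI6, a component of the cytoplasmic lattices of eggs, stood at 0.35, 0.79 and 2.03 FPKM in Jintang ovaries, against 0.27, 3.4 and 0.50 FPKM in Tibetan ovaries.

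YBX2, which packages stored germ-cell messages, repeated that order at 0.25, 0.71 and 2.59 FPKM in Jintang 1, 2 and 3, against 0.24, 2.57 and 0.50 FPKM in Tibetan 1, 2 and 3. The other 5 of the 8 did not. CPEB1, which controls the translation of stored messages, was highest in Tibetan 1, as FBXW12 was, at 1.72, 1.95 and 9.63 FPKM in Jintang ovaries against 14.4, 9.64 and 3.74 FPKM in Tibetan ovaries. ZAR1L was also highest in Tibetan 1, by a narrower margin, at 4.04, 1.37 and 4.85 FPKM in Jintang ovaries against 5.39, 4.57 and 3.05 FPKM in Tibetan ovaries. ACCSL and MAEL were highest in Jintang 2 (10.1 and 3.76 FPKM), and NLRP13 in Tibetan 3 (4.47 FPKM). The transcription factors NOBOX and LHX8, which act with FIGLA in early oocytes in mouse, were low but kept the common order, with NOBOX at 0.77 FPKM in Jintang 3 and 0.42 FPKM in Tibetan 2, and LHX8 at 0.33 FPKM in Jintang 3 and 0.59 FPKM in Tibetan 2. These 2 genes were picked for their role after their values were seen.

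**Figure D3:**
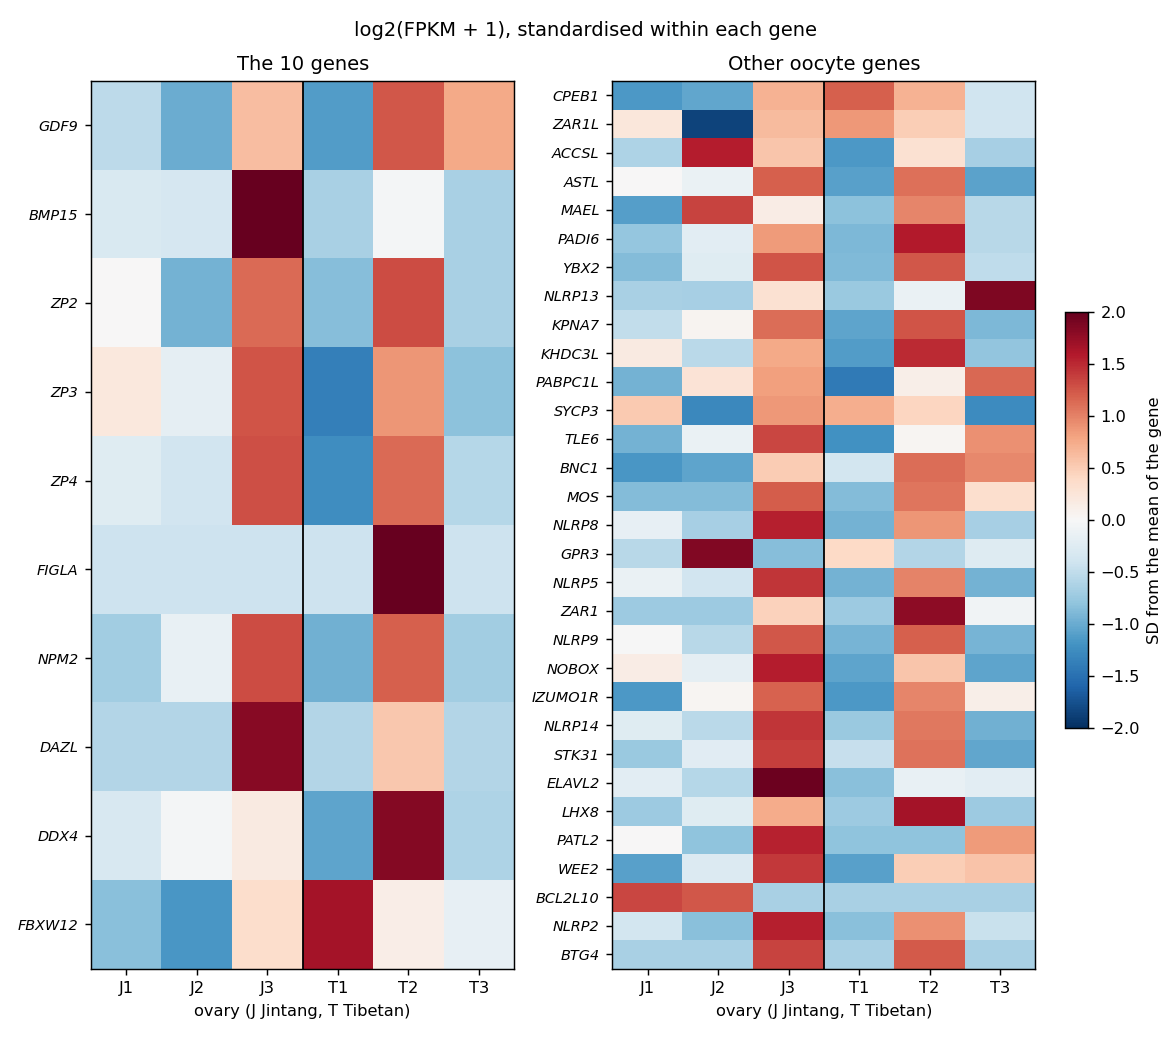
Level of the 10 genes (left) and of 31 other oocyte genes (right, ordered by mean FPKM) in each ovary, as log2(FPKM + 1) standardised within each gene; red is above and blue below the gene's own mean, and columns are Jintang (J1 to J3) and Tibetan (T1 to T3) ovaries. The J3 and T2 columns are red for most genes, while FBXW12, CPEB1 and ZAR1L are reddest in T1.

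Of the 13 granulosa markers listed, all found, 2 (15.4%) had Jintang 3 and Tibetan 2 above the other 4 ovaries, against 9.84% of all genes. One was AMH, the hormone of small growing follicles, which stood at 1.40, 1.99 and 44.3 FPKM in Jintang 1, 2 and 3, against 0.68, 20.7 and 0.95 FPKM in Tibetan 1, 2 and 3. The other was HSD17B1, a granulosa enzyme of oestradiol synthesis, which stood at 0.82, 4.13 and 23.8 FPKM in Jintang ovaries, against 0.66, 22.4 and 0.55 FPKM in Tibetan ovaries. FSHR, the follicle-stimulating hormone receptor, stood at 5.94, 1.51 and 10.7 FPKM in Jintang ovaries, against 5.66 and 1.21 FPKM in Tibetan 2 and 3 and a listed 0 in Tibetan 1. WT1 and FOXL2 were highest in Tibetan 1, INHA and CYP19A1 in Tibetan 3, and KITLG in Jintang 2. These genes were picked after their values were seen. The summed granulosa list did not follow that order, at 391 to 646 FPKM in Jintang and 536 to 1651 FPKM in Tibetan ovaries, with Tibetan 3 highest. INHA alone stood at 1194 FPKM in Tibetan 3, so the rank of that ovary rests largely on INHA.

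Each list of other cell types had its own order of summed FPKM, and these sums rest largely on a few abundant genes. TIMP1 alone stood at 5304 FPKM in Jintang 1. In Jintang 2 TIMP1 stood at 9215 FPKM, CYP11A1 at 5995 FPKM, STAR at 3130 FPKM and KRT18 at 243 FPKM. CYP17A1 stood at 103 FPKM in Jintang 3, 152 FPKM in Tibetan 2 and 719 FPKM in Tibetan 3. The 7 luteal markers found of 9 listed summed to 6405, 19729 and 506 FPKM in Jintang 1, 2 and 3, against 360, 553 and 2569 FPKM in Tibetan 1, 2 and 3, so Jintang 3 and Tibetan 2 were among the 3 ovaries with the least luteal message. The 6 theca markers found of 7 summed to 35.4, 63.8 and 168 FPKM in Jintang ovaries and 54.3, 199 and 843 FPKM in Tibetan ovaries, with Tibetan 3 highest and Tibetan 2 and Jintang 3 next. Of these theca markers 2 of 6 (33.3%), PTCH1 and GLI1, had Jintang 3 and Tibetan 2 above the other 4 ovaries, against 9.84% of all genes. The 8 stroma markers found of 9 ran from 3882 to 11178 FPKM in Jintang and from 2297 to 4054 FPKM in Tibetan ovaries, and the 7 of 9 surface epithelium markers from 21.0 to 259 FPKM in Jintang and from 23.3 to 140 FPKM in Tibetan ovaries. Whether tissue make-up has a part in the levels of the oocyte genes was not tested.

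**Figure D4:**
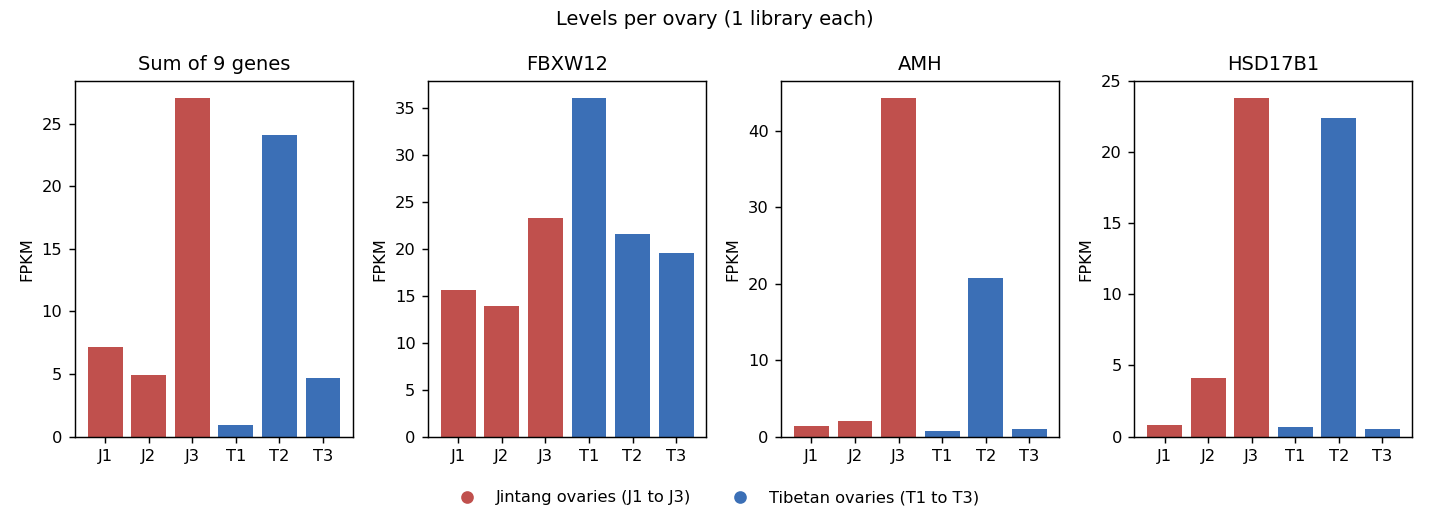
FPKM per ovary of the summed 9 genes (all but FBXW12), of FBXW12, and of the granulosa genes AMH and HSD17B1; bars are single libraries of Jintang (J1 to J3, red) and Tibetan (T1 to T3, blue) ovaries on linear axes from 0. The sum, AMH and HSD17B1 peak in J3 and T2 (27.1 and 24.1 FPKM for the sum), and FBXW12 peaks in T1.

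Receptors and SMADs of the TGF-beta family, those through which GDF9 and BMP15 act among them, were measured in the same whole-ovary RNA. All 13 receptor and SMAD genes listed were found, 0 passed the breed test, 1 was higher and 0 lower by an unadjusted p under 0.05 (2.46% and 3.27% of all genes), and their median difference was 0.11 on the log2(FPKM + 1) scale. SMAD3 and SMAD2, which carry the GDF9 signal, averaged 41.4 ± 3.35 and 31.6 ± 8.79 FPKM in Jintang ovaries, against 31.8 ± 15.3 and 29.1 ± 6.73 FPKM in Tibetan ovaries. ACVR1 and BMPR1A, type I receptors of the family, averaged 25.7 ± 9.86 and 15.7 ± 8.90 FPKM in Jintang ovaries, against 31.1 ± 10.2 and 28.2 ± 7.2 FPKM in Tibetan ovaries.

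BMPR2, the type II receptor shared by GDF9 and BMP15, stood at 7.49, 10.5 and 7.73 FPKM in Jintang 1, 2 and 3, against 4.46, 5.12 and 5.92 FPKM in Tibetan 1, 2 and 3. Its difference of 0.63 on the log2(FPKM + 1) scale did not pass (SE 0.29, limma adjusted p = 0.775). BMPR1B, the type I receptor through which BMP15 acts, stood at 42.7, 24.9 and 23.5 FPKM in Jintang ovaries, against 8.86, 16.3 and 6.04 FPKM in Tibetan ovaries. Its difference of 1.51 (SE 0.40, limma adjusted p = 0.775) did not pass either. BMPR1B was the member of the list with an unadjusted p under 0.05. These were the 2 genes of 13 without overlap, where 9.28% of all genes had none, and both were named after their values were seen.

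Of the 13 cumulus and granulosa genes listed as responding to oocyte factors, 12 were found and 0 passed. At an unadjusted p under 0.05, 2 were higher and 2 lower in Jintang ovaries (2.46% and 3.27% of all genes), and 3 were without overlap (9.28% of all genes). None of the 12 had Jintang 3 and Tibetan 2 above the other 4 ovaries, against 9.84% of all genes. The 2 higher were PTX3 and VCAN, and the 2 lower were PTGS2 and NPR2. HAS2, the hyaluronan synthase of the expanding cumulus, had the lowest mean of the 12. It stayed at or under 0.16 FPKM in Jintang ovaries and at or under 0.14 FPKM in Tibetan ovaries. Others were far higher: VCAN reached 121 FPKM in Jintang 1, PTX3 26.0 FPKM in Jintang 2 and TNFAIP6 21.7 FPKM in Tibetan 3. These genes were named after their values were seen.

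The genes outside the list whose levels ran most like the mean standardised profile of the 10 genes were taken from 13227 genes with a mean of at least 1 FPKM. Pearson's r over the 6 ovaries was 0.995 for BBIP1, 0.990 for S1PR4, 0.987 for SKAP1, 0.985 for PPM1N and 0.984 for AASDH. BBIP1, a subunit of the BBSome of cilia, stood at 21.5, 19.4 and 42.4 FPKM in Jintang 1, 2 and 3, against 20.5, 44.0 and 21.2 FPKM in Tibetan 1, 2 and 3. SKAP1, a T-cell adaptor, stood at 2.88, 3.36 and 9.47 FPKM in Jintang ovaries, against 2.89, 8.95 and 3.15 FPKM in Tibetan ovaries. With 6 points and this many genes, 153 genes reached an r of 0.9, all drawn from the same 6 libraries, so likeness here is a description only. Within the list, r with the shared profile was 0.967 for ZP2 and ZP4, 0.964 for NPM2, and 0.10 for FBXW12, each of which is itself part of that profile.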

How the data were processed

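The authors deposited 1 table of FPKM values per goat, made from TRIzol RNA and NEBNext Ultra libraries per the labels' protocols. TopHat2 (2.0.10), Bowtie2 (2.1.0) and RSEM (1.2.0) appear in the submitters' processing notes, with no roles stated. No source used here states the build, strand setting or depth. FPKM is relative within a library. The RefSeq gene table of ARS1.2 gave symbols to 16459 rows through the GeneID and to 31 through an accession; 1014 rows stayed unnamed.

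Limma 3.58.1 (R 4.3.3) compared the breeds on log2(FPKM + 1), with no other term and no filter on level beyond 93 genes at 0 in all libraries. The threshold was an adjusted p of 0.05, 2-sided. This scale understates the change of low genes. Relative depth came from the mode of ratios of low values between libraries. On simulated data for 3 libraries per breed with 17410 genes, 6% of log2 changes of 1, 48% of 2, 80% of 3 and 92% of 4 were recovered (50 genes each), with 7 false calls, at levels above those of most genes described here. Alternatives were other pseudocounts, a filter, TPM and median-ratio scaling, no trend, a replicate block and leaving out each library.

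The genes and lists were chosen with earlier results of these data known. Named by rule were the 10 genes, the 8 highest other oocyte genes, the 4 highest receptors or SMADs, list genes past the threshold (there were none) and the 5 genes most like the shared profile. Other genes were named outside this rule, many of them after their values were seen. Sequences and promoter motifs were not analysed here. Python 3.11.15, pandas 2.3.3, numpy 2.4.6, scipy 1.17.1 and matplotlib 3.10.9 were used.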

Additional observations from a re-analysis of the deposited data

How the results depend on the processing

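No setting called any of the 10 genes (adjusted p from 0.452 to 1.000 over 13 alternatives). The differences kept their sign in 112 of 124 refits of single genes. Pseudocounts of 0.1 and 0.01 turned DDX4 to 0.12 and 0.35 and enlarged the differences of low genes, to 1.60 and 3.47 for BMP15, 1.35 and 2.43 for ZP4, 1.09 and 2.15 for NPM2, 1.94 and 2.20 for ZP3, and 0.23 and 0.35 for the median of the 10 genes. Those settings called 1 gene lower in Jintang ovaries, where 0 were called otherwise. Leaving out 1 library moved GDF9 between -0.89 and -0.083, BMP15 between 0.072 and 0.71, ZP3 between 0.50 and 1.94, FBXW12 between -0.72 and -0.25, ZP2 between -0.35 and 0.71, ZP4 between -0.093 and 1.14, NPM2 between -0.28 and 1.01, DAZL between -0.037 and 0.082, DDX4 between -0.14 and 0.16, and the median of the 10 genes between -0.19 (without Jintang 3) and 0.60 (without Tibetan 2). Without Tibetan 2 that median covered only 9 genes, as FIGLA was at 0 in all libraries left. With 1 library left out, the genes called higher in Jintang ovaries ranged from 0 to 17 (without Jintang 3), and those with an unadjusted p under 0.05 from 521 to 2138. On the TPM scale the sum of 9 genes in Jintang 3 was 40.5, a change of unit. With either scaling, chosen for this count after the data were seen, 7 of 10 genes had Jintang 3 and Tibetan 2 highest. With at least 1 FPKM in 3 libraries, 5 of the 10 genes remained for testing. The replicate block called 0 genes (736 at an unadjusted p under 0.05, against 998 without it) and left the median of the 10 genes at 0.08. Goats sharing a number deviated from their breed means with correlations over genes of -0.02, -0.21 and -0.47. Deviations from the mean of so few goats cancel within a breed, so these correlations cannot decide whether the numbers pair the animals. Low genes rest on few fragments, and depth limits BMP15, FIGLA, DAZL and DDX4 most.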

Other observations

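A few oocyte genes outside the highest 8 also departed from the common order, and were picked after their values were seen. BCL2L10, an oocyte survival factor, stood at 0.38 and 0.36 FPKM in Jintang 1 and 2 and is listed at 0 in Jintang 3 and in the 3 Tibetan ovaries. GPR3, the receptor that holds oocytes in meiotic arrest in mouse, was highest in Jintang 2 at 1.04 FPKM and stood at 0.08 FPKM in Jintang 3 and 0.15 FPKM in Tibetan 2. KPNA7, an importin of eggs, kept the order, at 2.33 FPKM in Jintang 3 and 2.61 FPKM in Tibetan 2, and at or under 0.85 FPKM in the other 4 ovaries. MOS, the kinase of meiotic metaphase arrest, stood at 1.10 FPKM in Jintang 3 and 1.00 FPKM in Tibetan 2, and was above 0 elsewhere only in Tibetan 3, at 0.54 FPKM.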
